A study of Ovis aries with 17 samples.

Results

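IL1B, ICAM1 and VEGFA, 3 genes of inflammatory activation, were followed across 6 sheep cell subsets. They were chosen by name, each through the only probe that carries its symbol on the array: A_70_P039761 for IL1B, A_70_P030136 for ICAM1 and BL_OTH_F001353 for VEGFA. They are 3 of 11311 genes or gene identifiers that were tested, of which 270 had a symbol, from 15060 probes on the array.

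The study compared blood dendritic cells (DC), spleen cells and cultured DC of sheep in order to relate them to human and mouse subsets. RNA was hybridised to 17 one-colour arrays, 1 per RNA sample. The samples were B lymphocytes from spleen, sorted with an antibody to ruminant B cells (B, 4 arrays), spleen macrophages sorted by CD14 (MP, 3 arrays), blood plasmacytoid DC (pDC, 3 arrays), sorted per the study's text for CD45RB and against TCR1, CD8, CD11b, CD11c and B cell markers, blood XCR1- DC (cDC2, 3 arrays) and blood XCR1+ DC (cDC1, 1 array), both positive for CD11c and negative for TCR1, CD11b, CD45RB and B cell markers, with cDC2 CADM1lo CD172hi and cDC1 CADM1hi CD172lo and DC derived in vitro with the growth factor GM-CSF in 3 independent cultures (MoDC, 3 arrays). The animals were control sheep, females of the Prealpe breed per the study's methods. Ages were not given in the sources used here.

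Several features limit these groups as models. RNA of distinct animals was mixed where a sort gave too little, and the labels do not say on which arrays. Judging by the deposited file names, the cDC1 array and replicate 2 of cDC2 held pooled RNA. The study's text gives bone marrow cells as the start of the MoDC cultures, as the file names do, whereas the design text calls them monocyte-derived. Replicates 1, 2 and 3 of B, pDC, MP and MoDC shared slides 1, 2 and 3, while B replicate 4, cDC2 and cDC1 were on slide 4. B and MP shared the spleen, and pDC, cDC2 and cDC1 the blood. Between a spleen and a blood subset the tissue changed together with the cell type, and with MoDC the culture did, so in these pairs their parts cannot be told apart.

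IL1B encodes interleukin-1 beta, a cytokine made as an inactive precursor, above all by monocytes and macrophages after they sense microbial products, and released once caspase-1 of the inflammasome has cleaved it. ICAM1 is a surface protein that binds the beta-2 integrins LFA-1 (ITGAL with ITGB2) and Mac-1 (ITGAM with ITGB2). It holds T cells against the antigen-presenting cell, and its gene is switched on by NF-kB downstream of interleukin-1 and tumour necrosis factor. VEGFA is a secreted growth factor for blood vessels, induced by low oxygen and also made by activated macrophages.

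The probes are shown because each value below is the binding of labelled RNA to these letters alone. They are read 5′ to 3′ from the deposited scanner files and are printed in lower case throughout.
IL1B, A_70_P039761: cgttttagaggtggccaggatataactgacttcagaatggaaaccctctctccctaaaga
ICAM1, A_70_P030136: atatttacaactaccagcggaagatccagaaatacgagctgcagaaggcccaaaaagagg
VEGFA, BL_OTH_F001353: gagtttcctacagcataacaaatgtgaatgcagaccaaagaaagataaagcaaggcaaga
Each is 60 bases long. G and C make up 45% of the IL1B and ICAM1 probes and 38.3% of the VEGFA probe, and no pair of them shares a run longer than 6 bases. Levels of different probes were not compared with each other, since a probe's brightness depends on its sequence.

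Values are given as log2 of the background-corrected signal, less the 75th percentile of each array, so that 0 is a signal equal to that percentile and a difference of 1 is 2-fold. On the linear scale, the 75th percentile ranged from 194 to 688 over the arrays, and from 61.1% to 80.2% of spots were well above background. IL1B signals ran from 13.4 to 23457, and IL1B and ICAM1 were well above background on 17 of 17 arrays. VEGFA was near the limit of detection, well above background on 11 of 17 arrays, and entered the tests because all pDC and all MoDC arrays detected it. No spot of the 3 genes was saturated.

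**Figure D1:**
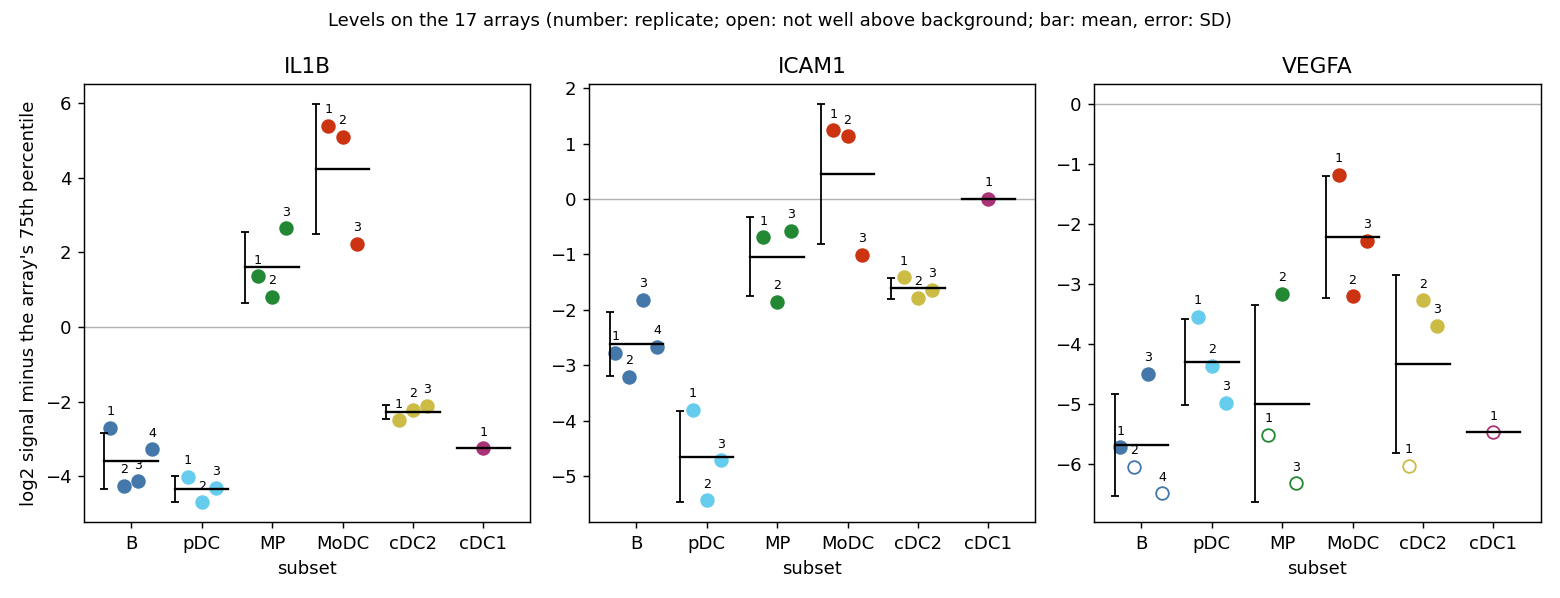
Levels of IL1B, ICAM1 and VEGFA on each of the 17 arrays, as log2 signal minus the array's 75th percentile (vertical axis) by subset (horizontal axis). Each point is an array numbered by its replicate, an open point was not well above background, the bar is the subset mean and the error bar its SD. MoDC had the highest mean of each gene, and MoDC replicate 3 lay 3.01 below the mean of the other two MoDC arrays in IL1B and 2.19 below it in ICAM1.

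Checked against defining genes, the labels held in the main, although CD14 and CADM1 were used to sort and are no independent evidence. Complement receptor 2 (CR2), carried by B cells, was at 4.20 to 4.25 in B and below 0 on all other arrays. CD14 averaged 6.12 in MP and 6.21 in MoDC, but also 3.63 in cDC2 and 3.02 on the cDC1 array. Of the other MP markers tested, ITGAM averaged -1.74 in MP and -1.24 in MoDC. CSF1R averaged -0.43 in MP but -3.54 in MoDC, below cDC2 at -2.86. The cDC1 array had the highest XCR1 and the highest CADM1. The pDC label was the least clear. The 2 pDC markers tested, TCF4 and TLR9, had a summed level of 0.73 to 1.81 in pDC, which overlapped B at 0.56 to 1.12 and cDC2 at 0.54 to 0.84. The study's text holds it likely that its pDC sort included B cells. It also holds it probable that its cDC2 sort included pDC, to a limited extent. The 4 T cell and NK cell genes tested (CD3D, CD3E, CD247 and GNLY) reached 5.48 to 5.62 in pDC, against 2.86 to 3.25 in B and at most 2.56 elsewhere. The cDC2 marker SIRPA (CD172) was well above background on no array. The cDC marker FLT3 averaged 1.35 in cDC2 and 2.69 on the cDC1 array, against -0.82 in pDC and less elsewhere. BATF3, the other cDC marker tested, averaged 2.41 in cDC2, near MP at 2.02. XCR1 averaged -2.16 in cDC2 against 2.61 on the cDC1 array. Beyond these, the cDC2 label rests on the sort.

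All 3 genes had their highest mean in MoDC, but they differed in what came next, and for ICAM1 the lead over the cDC1 array was 0.46, untested, and 0.063 without MoDC replicate 1. IL1B stepped down from MoDC to MP and then to all other subsets. ICAM1 declined gradually, with the cDC1 array second and pDC last. VEGFA was close to background in most subsets. Pairs of the 5 replicated subsets were compared with limma. A call needed a 2-fold difference or more and, after Benjamini-Hochberg adjustment over all genes of the pair, a p under 0.05. By this rule MoDC exceeded B in 3 of 3 genes (14.6% of all genes tested were called higher in MoDC). MoDC exceeded pDC in 2 of 3 (14.6%), MP in 2 of 3 (11.4%) and cDC2 in 2 of 3 (13.2%). MP exceeded B in 2 of 3 (11.3%), pDC in 2 of 3 (12.9%) and cDC2 in 1 of 3 (5%). B exceeded pDC in 1 of 3 (4.81%), and so did cDC2 (10.9%). Between B and cDC2, limma called 0 of 3 (23.1% of all genes in either direction), and 0 of 3 passed an unadjusted p of 0.05, whereas all 3 were called higher in cDC2 when the arrays were weighted by quality, and IL1B also without MoDC replicate 3. In bulk RNA, a lower level may come from fewer cells that express the gene or from less of its RNA in each cell, and these cannot be told apart here.

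IL1B, the cytokine, separated MoDC and MP from everything else. Its levels were 5.39, 5.09 and 2.23 on MoDC replicates 1 to 3, and 1.35, 0.80 and 2.64 on those of MP. In cDC2 they were -2.50, -2.22 and -2.12. In B they were -2.70, -4.26, -4.13 and -3.28, in pDC -4.01, -4.70 and -4.30, and the cDC1 array read -3.25. The lowest MP or MoDC array was therefore 2.92 above the highest of all others, and 2.54% of genes had these groups apart by a gap of any size. Within the pair the MoDC mean was the higher in all 25 other settings, but whether the arrays separated depended on the scaling. MoDC replicate 3 lay 0.41 below MP replicate 3 here. The lowest MoDC array was 0.39 above the highest MP array with median scaling and 0.92 above it in the deposited series table.

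Relative to B, IL1B was 227-fold higher in MoDC (log2 difference 7.83, SE 0.66, n = 3 and 4 arrays, limma adjusted p = 3.49e-07) and 36.5-fold higher in MP (log2 difference 5.19, SE 0.66, adjusted p = 3.68e-05). Relative to pDC, the differences were 381-fold for MoDC and 61.2-fold for MP (adjusted p = 3.19e-07 and 1.91e-05, limma). The calls held in all settings tried, but the folds varied, that of MoDC over B from 73.1 with normexp background correction to 455 without MoDC replicate 3, and over pDC from 86.0 to 763 under the same settings. Those of MP ran from 12.3 to 48.1 over B and from 14.5 to 80.7 over pDC, lowest with normexp and highest without MP replicate 2. Within each of slides 1 to 3, MoDC exceeded B by 8.08, 9.35 and 6.36, and MP exceeded B by 4.05, 5.05 and 6.77, so that these gaps stood on every slide. MoDC exceeded cDC2 91.6-fold (limma adjusted p = 1.11e-05), from 50.5-fold with normexp to 183-fold without MoDC replicate 3. MP exceeded cDC2 14.7-fold (limma adjusted p = 0.0028), a log2 difference of 3.88 with an SE of 0.70, and 8.51-fold with normexp. With the slide as a block it was 4.29, but with an SE of 1.22 it was no longer called (adjusted p = 0.136), as these subsets share no slide and are linked only through B.

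MoDC exceeded MP 6.23-fold in IL1B (log2 difference 2.64, 95% confidence interval 1.13 to 4.15, limma adjusted p = 0.0123). This difference was carried by 2 of the 3 slides. Within slides 1 and 2, MoDC was above MP by 4.03 and 4.29, while on slide 3 it was below by 0.41. Without MP replicate 2 or without MoDC replicate 2 the call was lost (adjusted p up to 0.058). Without MoDC replicate 3 the difference was 3.64. The median gene was 0.22 lower in MoDC than in MP on this scale and 0.076 higher with median scaling.

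The low end of IL1B showed less contrast. The 3 cDC2 arrays lay above all pDC arrays, with a mean 2.06 higher (95% confidence interval 0.55 to 3.56), which missed the threshold (limma adjusted p = 0.0508). It was called without B replicate 1, MP replicate 3 or any single MoDC array, when arrays were scaled to their medians, in the deposited series table and with array quality weights. With normexp it was 0.77 (adjusted p = 0.466), and with the slide as a block 1.64 with an SE of 1.22 (adjusted p = 0.666). The cDC1 array lay above the 3 pDC arrays too and 0.97 below the mean of cDC2, outside the range of cDC2. The lowest cDC array was 0.76 above the highest pDC array, and 23.1% of genes showed a gap of any size in this direction. The lowest cDC2 array was 0.75 above the highest pDC or cDC1 array, and 12.4% of genes showed such a gap of any size. The study chose IL1B for its signatures of these contrasts partly on these arrays, so they are no independent evidence. Between B and pDC the difference was 0.75 (95% confidence interval -0.66 to 2.16, limma adjusted p = 0.599), and between cDC2 and B it was 1.31 (interval -0.10 to 2.72, adjusted p = 0.166).

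ICAM1, the integrin ligand, was graded over the subsets and lowest in pDC. Levels were -3.80, -5.44 and -4.72 in pDC, against -2.78, -3.21, -1.82 and -2.67 in B. They were -1.41, -1.78 and -1.64 in cDC2 and -0.69, -1.85 and -0.57 in MP. MoDC read 1.25, 1.13 and -1.005, and the cDC1 array 0.00. The pDC arrays overlapped no other subset, while the ranges of MP and cDC2 overlapped, and MoDC replicate 3 lay among the MP arrays, though above all of them with median scaling and in the deposited series table.

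Compared with pDC, ICAM1 was 34.6-fold higher in MoDC, 12.3-fold higher in MP and 8.23-fold higher in cDC2 (log2 differences 5.11, 3.62 and 3.04, SE 0.59 each, limma adjusted p = 9.82e-06, 3.08e-04 and 0.00192). With normexp these folds were 8.14, 3.61 and 2.39, each still called, and without MoDC replicate 3 that of MoDC was 57.4. With the slide as a block the difference from cDC2 was 3.11, but with an SE of 1.02 it was no longer called (adjusted p = 0.143). B exceeded pDC 4.09-fold (limma adjusted p = 0.0312), by 1.02, 2.24 and 2.89 within slides 1 to 3. With the replicate block the difference was 2.05 against 2.03 and just missed the threshold (adjusted p = 0.0571). With normexp it fell to 0.70 (adjusted p = 0.406). The call was also lost without B replicate 1, 3 or 4 or pDC replicate 2 or 3. All myeloid arrays (MP, MoDC, cDC1 and cDC2) stood at least 1.95 above the highest pDC array, and 6.83% of genes had a gap of any size there. For cDC alone the gap was 2.02, and the study picked ICAM1 for that contrast partly on these arrays.

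Above B, ICAM1 was 8.45-fold higher in MoDC (limma adjusted p = 4.34e-04) and 3.00-fold higher in MP (log2 difference 1.58, limma adjusted p = 0.0467). The fold of MoDC was 5.01 with normexp and 14.0 without MoDC replicate 3. On slides 1 to 3, MoDC exceeded B by 4.03, 4.34 and 0.82, and MP exceeded B by 2.09, 1.35 and 1.26. The MP call was close to the threshold. With the slide as a block and with the replicate block the difference was 1.57 and no longer called (adjusted p = 0.0663 and 0.0743), and the call was also lost with no filter on dim probes (adjusted p = 0.0589) and in 9 of 16 fits that left out 1 array. MoDC exceeded cDC2 4.20-fold (limma adjusted p = 0.0144). With the slide as a block the log2 difference went from 2.07 to 2.00 and its SE from 0.59 to 1.02, and it was no longer called (adjusted p = 0.258). The call was also lost without MoDC replicate 1 or 2, and the fold was 6.98 without MoDC replicate 3.

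From B upward, neighbouring replicated subsets in the order of ICAM1 were not called different. MoDC exceeded MP by 1.495 (95% confidence interval 0.23 to 2.76, limma adjusted p = 0.0747), by 1.94 and 2.99 on slides 1 and 2, and was 0.44 below it on slide 3. The pair was called without MoDC replicate 3, with quantile or median scaling, in the deposited series table and with array quality weights. MP and cDC2 differed by 0.58 (interval -0.69 to 1.84, adjusted p = 0.573), and cDC2 and B by 1.01 (interval -0.17 to 2.19, adjusted p = 0.206). The single cDC1 array was 1.61 above the cDC2 mean and above each cDC2 and MP array, a difference without a replicate check. ICAM1 and IL1B thus shifted in opposite directions between cDC2 and the cDC1 array.

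VEGFA, the growth factor, was detected on every array of only 2 subsets, pDC and MoDC. MoDC read -1.18, -3.21 and -2.28, and pDC -3.55, -4.36 and -4.98. In MP, replicate 2 read -3.16 and was well above background, while replicates 1 and 3 read -5.51 and -6.32 and were not. Of the cDC2 arrays, replicates 2 and 3 read -3.28 and -3.70 and were detected, and replicate 1 at -6.03 was not. B read -5.72, -6.04, -4.50 and -6.49, of which replicates 1 and 3 were well above background. On the cDC1 array VEGFA was not well above background.

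MoDC exceeded B 11-fold in VEGFA (log2 difference 3.46, SE 0.80, limma adjusted p = 0.00311) and MP 6.82-fold (log2 difference 2.77, SE 0.86, limma adjusted p = 0.0261). As 2 of 4 B arrays and 1 of 3 MP arrays were well above background, these folds rest in part on dim signals and their size is uncertain. Within slides 1 to 3 MoDC was above B by 4.54, 2.83 and 2.22. On slide 2, where MP had its only detected signal, MoDC was 0.05 below it. On slides 1 and 3 MoDC was higher, against MP signals that were not well above background. The MP comparison was no longer called without MP replicate 1 or 3 or MoDC replicate 1, and with array quality weights, and was 12.9-fold without MP replicate 2. After normexp background correction neither was called, at 2.08-fold over B and 1.66-fold over MP, and in the deposited series table both were, at 4.82-fold and 3.59-fold. Against the single cDC1 array, where VEGFA has only an upper bound, the MoDC mean was at least 5.64-fold higher and that of pDC at least 1.34-fold higher. These bounds set the subset's mean over all its arrays against the lowest signal that passed as well above background on the cDC1 array, -4.72. Replicate 3 of pDC, at -4.98, lay below that signal. No such bound holds for cDC2, whose mean includes replicate 1, which was not well above background.

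MoDC and pDC differed by 2.07 in VEGFA (95% confidence interval 0.23 to 3.91, limma adjusted p = 0.0748), and MoDC and cDC2 by 2.11 (interval 0.27 to 3.94, adjusted p = 0.0677), with no overlap of arrays in either pair. Both pairs were called after quantile or median scaling, in the deposited series table and without MP replicate 2, which brought the calls from 2 to 4 of 10 pairs. They were smaller with normexp, at 0.71 over pDC and 0.81 over cDC2. The difference from cDC2 was 1.26 without cDC2 replicate 1 and 1.04 with the slide as a block (SE 1.59, adjusted p = 0.726). Among B, pDC, MP and cDC2, none of the 6 pairs was called by limma, and none reached an unadjusted p of 0.05. Even pDC and cDC2, whose means differed by 0.04, left an interval of -1.80 to 1.87. The study selected VEGFA as higher in MoDC partly on these arrays. By its rule, which sets the lowest MoDC array against the highest of the others, VEGFA fell short by 0.05 on this scale, with MP replicate 2 the highest of the others, whereas 5.8% of genes passed. VEGFA passed it in the deposited series table, by 0.18, and with quantile and median scaling, by 0.13 and 0.16.

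**Figure D2:**
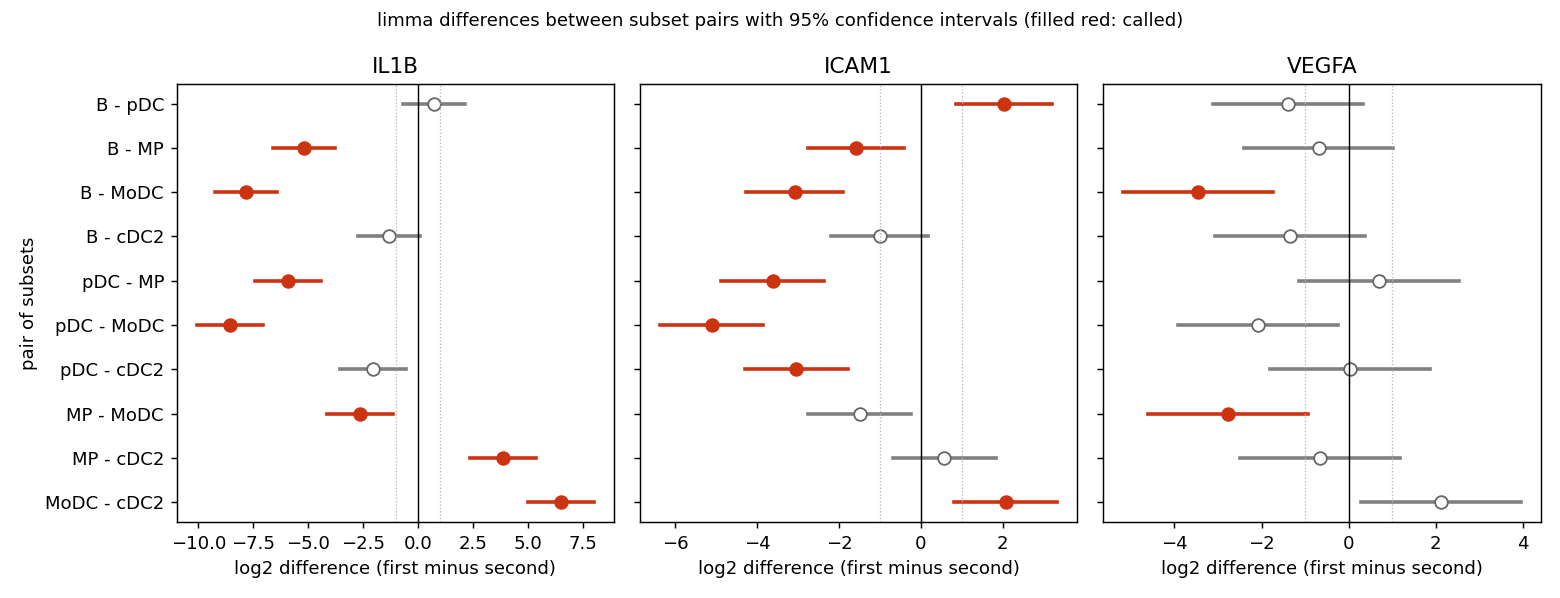
Differences of IL1B, ICAM1 and VEGFA between the 10 pairs of replicated subsets, as log2 of the first minus the second subset (horizontal axis, 1 panel per gene), with 95% confidence intervals from limma. Filled red points were called and the dotted lines mark 2-fold. IL1B and ICAM1 were each called in 7 pairs and VEGFA in 2.

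IL1B and ICAM1 were each called in 7 of 10 pairs, and 7.02% of the genes tested were called in 7 or more. VEGFA, with 2 pairs, sat at the median of all genes, since 53.5% were called in 2 or more. The comparisons share arrays, so the pairs of a gene are not independent of each other.

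Over the 17 arrays, IL1B and ICAM1 varied together, with Pearson's r of 0.80 and Spearman's rho of 0.84, as a description of arrays that share subsets and slides. Of all genes, 3.08% correlated better with IL1B than ICAM1 did. Around the subset means (16 arrays, cDC1 left out), r was 0.71, which rested on MoDC replicate 3, since r was 0.38 over the 15 arrays without it, a comparison chosen after the data were seen. The cDC1 array stood off this relation with its ICAM1 of 0.00 at an IL1B of -3.25. VEGFA ran less closely with IL1B (r of 0.50, and -0.18 around the subset means) and with ICAM1 (0.31 and -0.07).

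**Figure D3:**
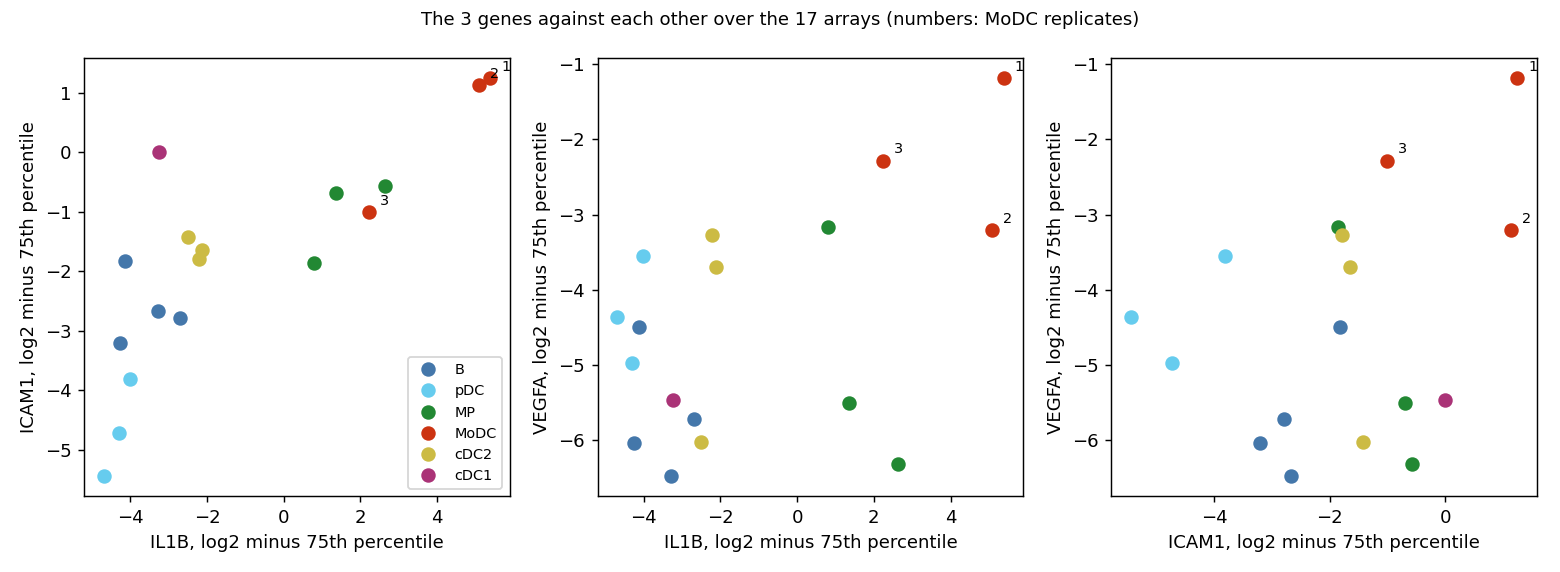
The 3 genes against each other, each axis giving log2 signal minus the array's 75th percentile, with a point for each of the 17 arrays coloured by subset and the MoDC arrays numbered. IL1B and ICAM1 rose together over the arrays (r of 0.80), with the cDC1 array above the others of like IL1B level, while VEGFA was scattered in the subsets other than MoDC.

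The spread among the 3 MoDC cultures was large for IL1B and ICAM1. IL1B had an SD of 1.74 in MoDC, against 0.20 to 0.95 in the other replicated subsets, and its levels spanned 8.91-fold. That SD exceeded those of 89.9% of genes, whose median was 0.70. ICAM1 had an SD of 1.27, above 79.2% of genes, and spanned 4.76-fold. In these genes replicates 1 and 2 differed by 0.30 and 0.11, and replicate 3 was lower by 3.01 and 2.19 than their mean, so that without it the SDs were 0.21 and 0.08. VEGFA, with an SD of 1.01 and a span of 4.07-fold, was divided otherwise, since replicates 1 and 2 differed by 2.03 and replicate 3 lay between them. Its SDs in MP (1.64) and cDC2 (1.48) were larger still, over arrays that were partly below background.

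MoDC replicate 3 stood apart over the whole array as well. It was the one farthest from the other two in 62.9% of genes, and its correlations with them were 0.87 and 0.88, against 0.97 between replicates 1 and 2. The median gene was 0.25 higher on it, so relative to the median gene IL1B was lower by 3.26 and ICAM1 by 2.44. IL1B was lower on replicate 3 by 3.43 with quantile normalization and by 1.71 in the deposited series table, and ICAM1 by 1.88 and 0.84. Median scaling left the gaps relative to the median gene as they were.

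Other genes on that array differed in direction. Of the 13 probes tested from a list of cytokines and NF-kB targets, 10 were higher on MoDC replicate 3 than on both other MoDC arrays and 1, TLR2, was lower, while 48.9% of all genes were higher and 36.7% lower. The 10 count PTGS2 under both of its names. Over the 4 pathway lists together, 13 of 27 probes were higher (48.1%) and 8 lower (29.6%), near the shares of all genes. The neutrophil-attracting chemokine CXCL8 read 9.20 against 7.04 and 7.30, the interferon-induced chemokine CXCL10 0.76 against -1.94 and -1.69, tumour necrosis factor (TNF) 4.82 against 3.52 and 3.83, and IL6 -2.20 against -4.54 and -3.70. Of the 5 adhesion genes other than ICAM1, 4 were lower, as ICAM1 was, the integrin chains that bind it among them. Of the 4, SELP was well above background on only 1 of 3 MoDC arrays. ITGB2 read 3.93 against 6.04 and 5.63, and ITGAL -3.67 against -1.77 and -2.22. The glycolytic enzyme GAPDH, often used as a reference gene, read 2.53 against 7.04 and 6.02. IL1A, the other interleukin-1, read 3.30 against 3.87 and 3.15 and was not lower. What set this culture or array apart was not tested.

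**Figure D4:**
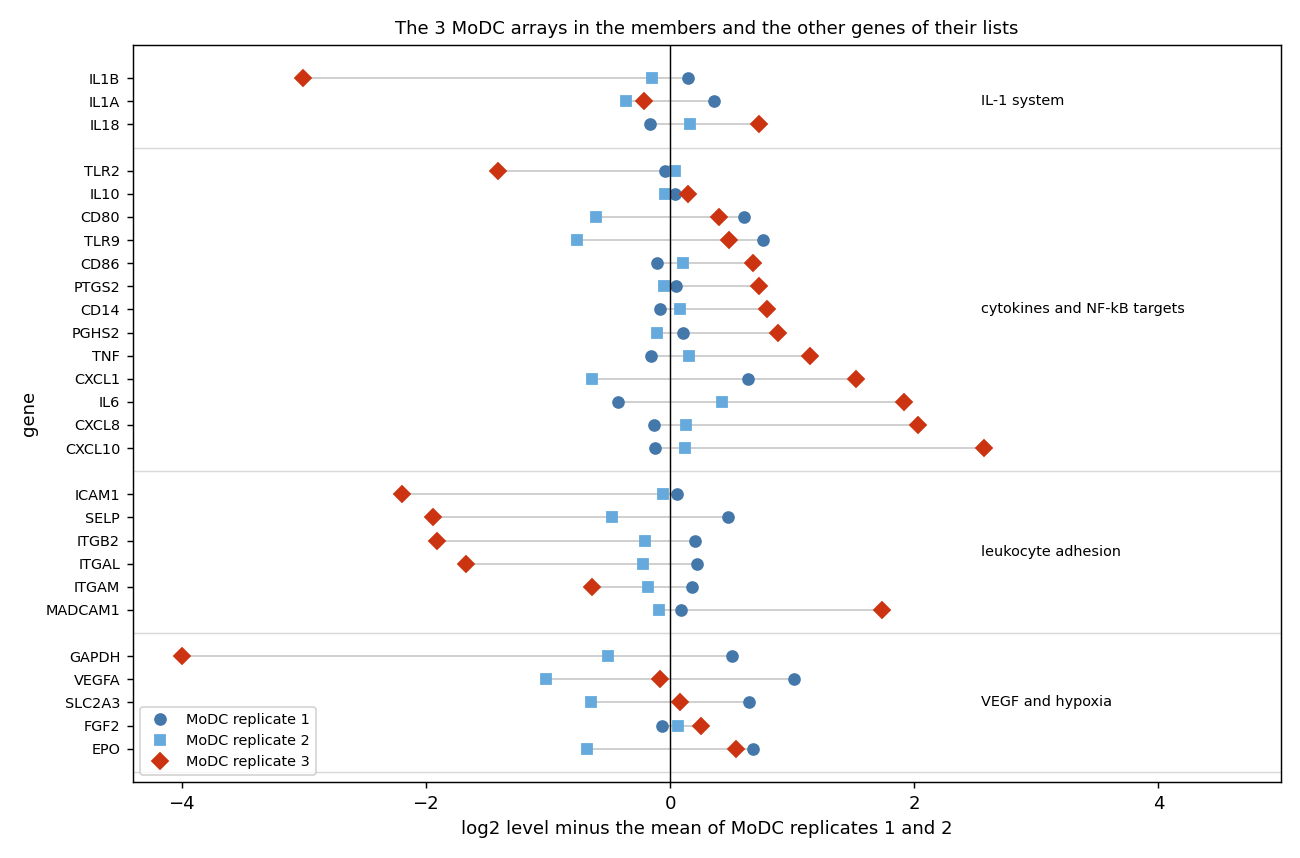
The 3 MoDC arrays in IL1B, ICAM1, VEGFA and the other measured genes of 4 lists (vertical axis), as the log2 level minus the mean of MoDC replicates 1 and 2 (horizontal axis), a symbol for each array. Replicate 3 lay to the left in IL1B, ICAM1, TLR2, GAPDH and 4 other adhesion genes, and to the right in CXCL10, CXCL8, IL6 and TNF.

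Few other genes of the same pathways carry a name on this array. Of 28 genes listed for the interleukin-1 system 3 were tested, IL1A, IL1B and IL18, and no receptor or inflammasome gene of the list was among those tested. IL18, a cytokine also cleaved by caspase-1, was highest in MoDC at 0.80 ± 0.45 (SD, n = 3) and MP at -0.29 ± 0.59 (SD, n = 3), and lowest in B at -4.67 ± 0.55 (SD, n = 4). It was called in 8 of 10 pairs and, unlike IL1B, was higher in pDC than in B (4.79-fold, limma adjusted p = 0.00171). IL1A reached 3.44 ± 0.38 (SD, n = 3) in MoDC and -2.29 ± 0.41 (SD, n = 3) in MP, and averaged -6.13 to -5.89 in the other subsets, where 4 of 11 arrays detected it. In all 3 genes MoDC was called over B (14.6% of all genes), pDC (14.6%) and cDC2 (13.2%), and MP over B (11.3%) and pDC (12.9%). IL1A entered the tests only through MoDC and MP, so its calls add nothing to these counts.

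Among the 13 cytokine and NF-kB probes (12 genes, since PTGS2 was measured by another probe under its older name PGHS2), MoDC exceeded pDC in 10 (14.6% of all genes) and was lower in 1 (18.3%), with a median difference of 3.62 against -0.27 over all genes. MoDC exceeded B in 5 (14.6%) and cDC2 in 3 (13.2%), and was above MP in 3 (11.4%) and below it in 4 (14.4%). CXCL8, like IL1B, was highest in MoDC and next in MP, with means of 7.84 in MoDC, 2.48 in MP, 0.69 in cDC2, -0.25 on the cDC1 array, -5.22 in B and -5.78 in pDC. PTGS2, the inducible prostaglandin synthase, was instead highest in MP (5.61 ± 0.32, SD, n = 3) and was 63.9-fold lower in MoDC than in MP (limma adjusted p = 5.47e-04). CXCL10 was 24.6-fold lower in MoDC than in MP (limma adjusted p = 0.00292). IL6 was detected on the 3 MoDC arrays, the 3 cDC2 arrays and 3 of 4 B arrays, and on no MP or pDC array. Its means were -3.48 in MoDC and -3.68 in B (limma adjusted p = 0.823).

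ICAM1 was 1 of 6 adhesion genes tested of 24 listed. MP exceeded B in 4 of the 6 (11.3% of all genes) and pDC in 4 (12.9%), and MoDC exceeded B in 3 (14.6%) and pDC in 4 (14.6%). ITGAM, the alpha chain of Mac-1, was highest in MoDC (-1.24 ± 0.41, SD, n = 3) and MP (-1.74 ± 0.48, SD, n = 3), and was detected neither in pDC nor on the cDC1 array. Its partner ITGB2 was 4.32-fold higher in MP than in B (limma adjusted p = 0.00145) and 3.42-fold higher in MoDC (limma adjusted p = 0.00338). ITGAL, the alpha chain of LFA-1, was called in 1 pair, 2.53-fold lower in MoDC than in cDC2 (limma adjusted p = 0.0452). SELP, a selectin of platelets and endothelium, was detected on the 3 MP arrays and on 1 of 3 MoDC arrays, and was called higher in MP (limma adjusted p = 0.00483). It entered the tests only through MP, so its calls add nothing to the counts of adhesion genes.

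VEGFA stood among 5 genes tested of 45 listed for VEGF and hypoxia. The glucose transporter SLC2A3 was high in MP (5.85 ± 0.76, SD, n = 3) and MoDC (5.71 ± 0.65, SD, n = 3), and was called over B, pDC and cDC2 in both. Fibroblast growth factor 2 (FGF2) was detected on the 3 MoDC arrays and on no other. Erythropoietin (EPO) was detected on 5 arrays, the 3 cDC2 arrays among them, and on no MoDC array. GAPDH was called higher in MoDC and in cDC2 than in B, near the threshold (limma adjusted p = 0.0467 and 0.0473). Its MoDC levels were 7.04, 6.02 and 2.53 on replicates 1 to 3, the last below the B mean of 3.235. VEGFA, SLC2A3, GAPDH and FGF2 were called higher in MoDC than in B (14.6% of all genes), and VEGFA and FGF2 higher than in MP (11.4%). FGF2 entered the tests only through MoDC, so its calls add nothing to these counts. No VEGF receptor and no HIF gene of the list was among those tested.

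**Figure D5:**
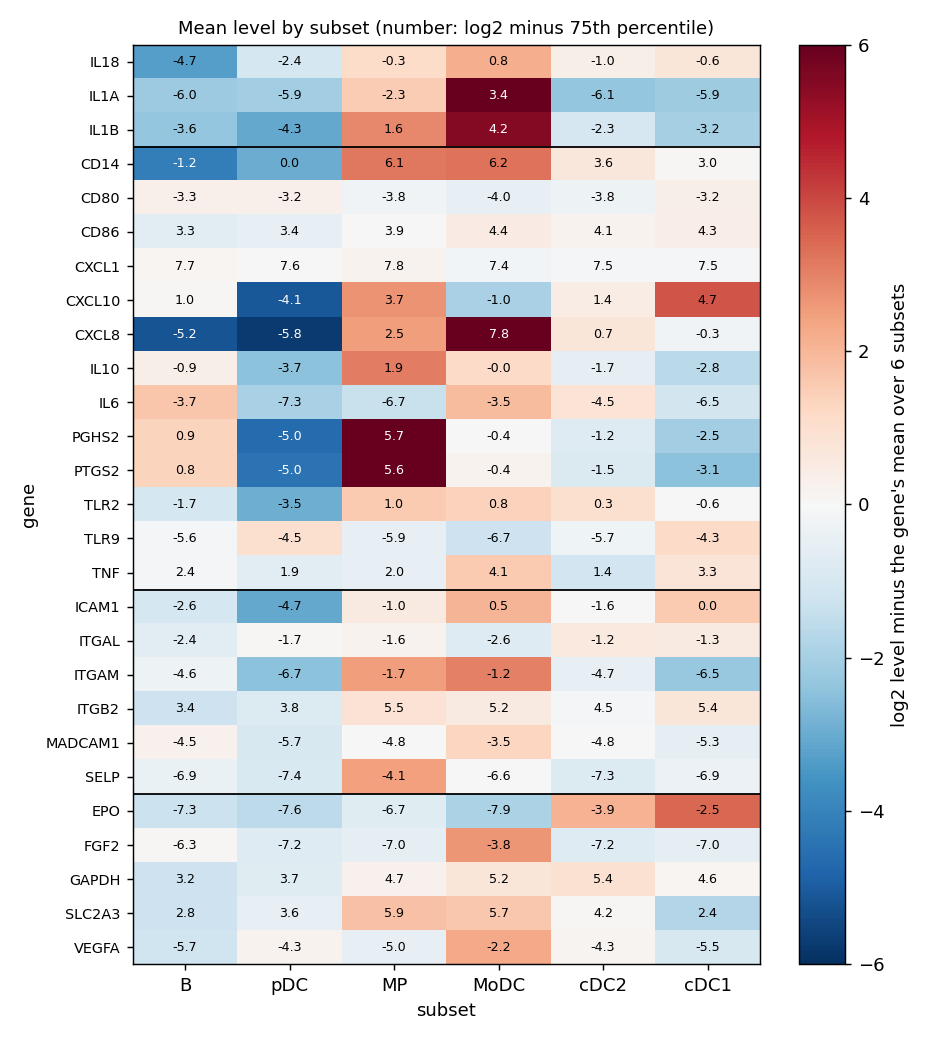
Mean level of each list gene (rows, the 4 lists separated by lines) in each of the 6 subsets (columns). The number in a cell is the mean log2 signal minus the array's 75th percentile and the colour that mean minus the gene's mean over the 6 subsets. IL1B, IL1A and CXCL8 were highest in MoDC, PTGS2 in MP and CXCL10 on the cDC1 array.

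The named genes whose levels ran most like IL1B over the 17 arrays were ITGAM (r of 0.92), the pyridoxal kinase PDXK (0.92), the retinal dehydrogenase ALDH1A1 (0.92), the pentose phosphate enzyme PGD (0.90) and IL1A (0.90). Each had higher means in MP and MoDC than in B, pDC and cDC2. For ICAM1 they were the lipoprotein receptor TLR2 (0.86), the isocitrate dehydrogenase IDH1 (0.85), the calpain inhibitor CAST (0.82), the galectin LGALS1 (0.81) and CXCL8 (0.81). IDH1 and LGALS1 were, like ICAM1, higher on the cDC1 array than in cDC2. Unnamed probes ran closer than any named gene, BL_OTH_F001665 with ICAM1 (0.99) and A_70_P038421 with IL1B (0.96).

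For VEGFA the closest named genes were lactoferrin (LTF, r of 0.79), endothelin 1 (EDN1, 0.73), the antimicrobial cathelicidins CATHL3 (0.73) and BAC5 (0.72) and carbonic anhydrase CA1 (0.69). LTF and the cathelicidins are stored in granules of neutrophils, and LTF was the single neutrophil gene of the marker lists that was tested. Its level was -0.20 to 1.54 in MoDC, -3.41 to -0.99 in MP, -3.22 to -1.97 in cDC2, -2.87 on the cDC1 array and at most -3.42 in B and pDC. DCN, a matrix protein of connective tissue and the single stromal marker tested, was detected on the 3 MoDC arrays and on no other. Erythroid HBB, the single erythroid gene tested, was detected in the blood subsets, at -2.82 to -0.21 in pDC, -2.88 to 0.42 in cDC2 and 0.83 on the cDC1 array, on 1 of 4 B arrays and on no MP or MoDC array. The part of other cell types in the MoDC levels of IL1B, ICAM1 and VEGFA was not tested. Neither was that of erythroid cells in the blood subsets or of T cells and NK cells, which the gates against TCR1 and CD8 would remove in part, in the IL1B and ICAM1 levels of pDC.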

How the data were processed

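RNA of 17 sheep samples was amplified, labelled with Cy3 and hybridised to a custom ovine Agilent array by the authors. The deposited files give per spot a background-corrected intensity, not normalized between arrays, the median pixel intensities of spot and local background, and flags of 0 or 1. Per the file headers, Feature Extraction 10.7.3.1 read 12 arrays and 10.10.1.1 the 5 on slide 4. The submitters' processing notes name limma without a version. A deposited series table of log2 values, with the authors' method not stated in the sources used here, served as an alternative. Its rows were matched to probes by alphabetical order of probe names, in which 16 of 17 columns correlated best with their own array (r of own arrays 0.969 to 0.988), and cDC2 replicate 2 about equally with replicate 3. Its columns run in the same direction as the scanner values, with medians of 6.505 to 6.545, while their centring and their scale beyond log2 stay unknown.

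Of 15744 spots 536 were controls. Outlier-flagged spots (273) were left out. Values are log2 of the intensity minus the array's 75th percentile, averaged over spots of a probe. The filter on dim probes asked, in 1 or more subsets, that each array had over 50% of a probe's spots well above background (11549 probes), and a gene was read from its probe of highest sum (11311 genes). Symbols came from the files (140 probes) or from RefSeq, ARS-UI_Ramb_v3.0 (301 probes), used for names only.

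Group means were fitted to all 17 arrays with limma 3.58.1 in R 4.3.3 and 10 pairs compared. The fit was tested on simulated data. p-values measure the spread between these arrays, which may be technical where RNA was pooled, and the number of arrays limits the precision. Slides were read from the barcodes. Same-numbered arrays of B, pDC, MP and MoDC deviated together (r 0.10 to 0.56, all above 0.1). They shared a slide, and the labels do not say whether they also shared an animal. Same-numbered arrays of cDC2, on slide 4, did not deviate together with them.

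Named genes were the 3 genes, the measured genes of 4 pathway lists and of cell type marker lists, and for each of the 3 the 5 named genes and 2 unnamed probes of highest r. The genes and lists were chosen with earlier results of these data known. Alternatives tried were quantile and median scaling, normexp (offset 50), the series table, no filter on dim probes, all probes, slide and replicate as blocks, array quality weights and leaving out each array of the replicated subsets.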

Additional observations from a re-analysis of the deposited data

How the results depend on the processing

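Of 270 differences between subset pairs recomputed under 9 other settings, 243 kept their side of the threshold, 11 lost it and 16 gained it, and of 480 recomputed without 1 array, 450 kept it, 21 lost it and 9 gained it. No called difference changed sign. Pairs called for ICAM1 fell from 7 to 4 with the slide as a block. For VEGFA they rose from 2 to 4 with quantile or median scaling or the series table, fell to 0 with normexp, and ranged from 1 to 4 without 1 array. The replicate block gave 7, 5 and 2 pairs for IL1B, ICAM1 and VEGFA, and changed no calls other than those of ICAM1 named above. Calls over the list genes fell from 27 to 17 (adhesion) and from 19 to 9 (VEGF and hypoxia) with normexp, and the latter to 10 with the slide as a block. In the series table the SD among MoDC arrays was 1.01 for IL1B, 0.50 for ICAM1 and 0.66 for VEGFA. Without 1 MoDC array it ranged from 0.21 to 2.23, from 0.080 to 1.59 and from 0.66 to 1.43. The IL1B lead of MoDC over MP ranged from 2.06 to 3.64 without 1 array.

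The gap between the lowest index and the highest comparator array changed with the scaling and with the arrays left out. For MoDC over all others and over MP it was -0.41 in IL1B, became 0.39 with median scaling and 0.92 in the series table, and ranged from -0.41 to 2.45 without 1 array (highest, as in ICAM1, without MoDC replicate 3). In ICAM1 it was -1.01 over all others, -0.079 with median scaling, 0.36 in the series table and -1.01 to 1.13 without 1 array, and over MP -0.44, 0.36, 0.79 and -0.44 to 1.70. In VEGFA both gaps were -0.049, and became 0.13 with quantile scaling, 0.16 with median scaling and 0.18 in the series table. Without 1 array they ranged from -0.049 to 0.88 over all others (highest without MoDC replicate 2) and to 2.30 over MP (highest without MP replicate 2). For cDC over pDC, the ICAM1 gap ranged from 2.02 to 2.93 without 1 array, and in VEGFA the gap was -2.47 and, in the series table, -1.30. The gap of cDC2 over pDC and cDC1 in VEGFA was -1.30 in the series table and ranged from -2.47 to -0.15 without 1 array (highest without cDC2 replicate 1). The causes were not tested. Normexp gave no usable fit on the cDC1 array, where spots lay up to 64180 below their local background, so no value of that array was used with it. VEGFA is limited by its signal, which was not well above background on 6 of 17 arrays.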

Other observations

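Several genes of the lists were on the array but passed in no subset. Interferon gamma (IFNG) was well above background on 2 arrays, the growth factor gene CSF2 on 1, osteopontin (SPP1) on 3, and the endothelial selectin SELE and TGFB1 on 0. A dimmer TNF probe, with a level of at most -3.07 on any array, was well above background on 16 arrays, and the brighter one was used.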
